A study of Equus caballus with 12 samples.

Results

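The miR-424, miR-503, miR-450 and miR-542 cluster was followed across heart, lung and liver of the horse. All entries of the normalized miRNA table named eca-miR-424, eca-miR-450, eca-miR-503 or eca-miR-542 (eca for the horse, Equus caballus), with any letter or arm suffix, were taken as members. There were 6 of them among the 294 known miRNAs and 629 entries of the table: eca-miR-424, eca-miR-503, eca-miR-450a, eca-miR-450b-5p, eca-miR-450c and eca-miR-542-5p, written without the prefix from here on. The rule uses names only, and it was chosen with earlier results of these data known.

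The tissues came from 4 healthy Polish cold-blooded stallions aged 1 to 2 years (horses 27, 30, 32 and 34), and were collected at slaughter. Each horse gave 1 library of the left ventricle of the heart, 1 of the caudal lobe of the right lung and 1 of the right lobe of the liver, so that each tissue had 4 libraries from 4 animals. Values are normalized counts, which are reads divided by a size factor for each library. The reads assigned to entries of the table, as inferred from its values, numbered between 3066869 and 9355513 per library, the fewest in the liver of horse 27 and the lung of horse 34 (3536536).

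In the RefSeq annotation of the horse, the hairpins of the 6 members lie side by side on chromosome X between HPRT1, a purine salvage enzyme gene, and PLAC1, a gene known from the placenta. From the HPRT1 side, their order is MIR450B, MIR450A, MIR450C, MIR542, MIR503 and MIR424. Clustered miRNA hairpins are commonly cut from a shared primary transcript and can therefore be made together, while the amount of each mature miRNA also depends on its own processing and decay. In mammals, miR-424 and miR-503 carry a seed of the miR-15 and miR-16 family and are known to repress cyclins and other drivers of the cell cycle, and they rise when muscle cells differentiate. The miR-450 and miR-542 members have other seeds and are less studied.

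The tissue labels were set beside miRNAs that mark their main cell types. These lists were chosen with earlier results of these data known, so that the counts are not an independent check. All 4 of 4 heart muscle miRNAs were higher in the heart than in both other tissues, and all 7 of 7 airway epithelium miRNAs were higher in the lung than in both. All 3 of 3 hepatocyte miRNAs were higher in the liver than in both. The most abundant markers were miR-1 for heart muscle (lung vs. heart log2 fold change -9.26), miR-34c for airway epithelium (lung vs. heart 8.10) and miR-122 for hepatocytes (lung vs. liver -10.04).

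All 6 members had the highest mean in the liver, the next in the lung and the lowest in the heart. In normalized counts the same order held within every horse for every member, in 24 of 24 pairs of a member and a horse. The members share the 4 horses and their libraries, so that these pairs are not independent. Of the 256 known miRNAs that passed the filter on low values (10 normalized counts or more in 4 or more libraries), 15.6% had their means in this order and 3.52%, or 9 miRNAs, kept it in all 4 horses. All 6 members passed the filter and are counted in both of these shares, among the 9 as well. The summed normalized count of the cluster was 1211 ± 384 in the heart, 3673 ± 1421 in the lung and 11371 ± 1241 in the liver (SD, n = 4). The ranges of the sum did not overlap between tissues, from 704 to 1550 in the heart, from 2616 to 5700 in the lung and from 10512 to 13214 in the liver. As a share of the reads of known miRNAs, which does not use the size factors, the cluster held 0.00591% to 0.0154% in the heart, 0.0551% to 0.150% in the lung and 0.189% to 0.250% in the liver. In the heart, miR-1 alone held 3748244 to 4650321 inferred reads per library, where all entries held 8113895 to 9355513. This lowers the share of every other miRNA there. By such shares, miR-424 and miR-542-5p kept the order in 3 of 4 horses, and each other member in all 4. In pieces of whole tissue, fewer cells that make a miRNA and less of it per cell cannot be told apart.

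**Figure D1:**
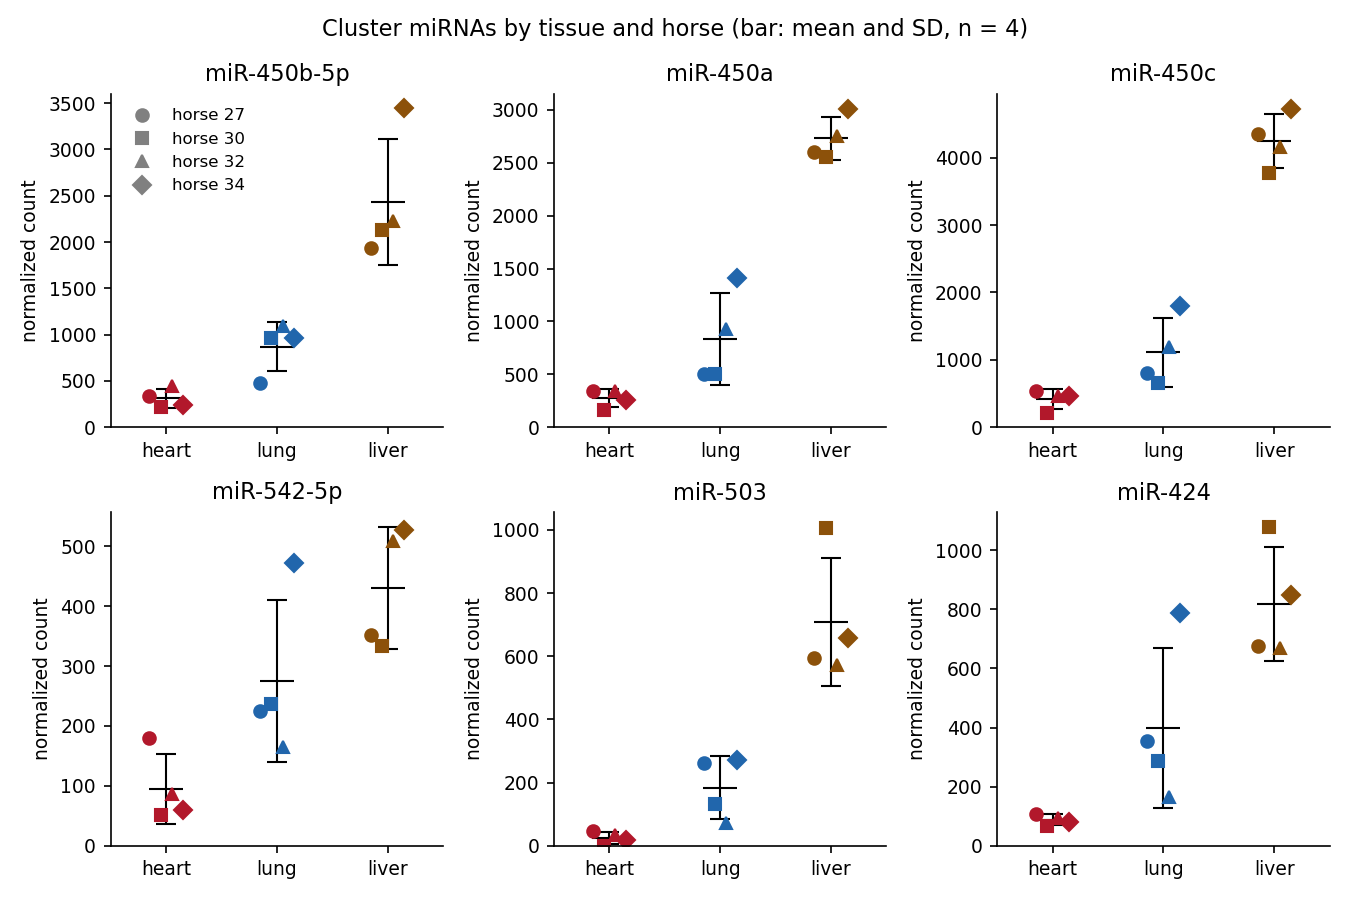
Normalized counts of the 6 cluster miRNAs (vertical axes, linear, from 0, with a scale of their own for each miRNA) in heart, lung and liver (horizontal axes). Each point is 1 library, with a symbol for each of the 4 horses, and the black bars give mean and SD (n = 4). The liver points lie above the lung points for the 3 miR-450 members and miR-503, and the lung of horse 34 reaches into the liver range for miR-424 and miR-542-5p.

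The tissues were compared with limma on log2(normalized count + 1) over all 256 miRNAs, with Benjamini-Hochberg adjustment. A call needed an adjusted p below 0.05 together with a change of 1 or more, up or down, on the log2 scale. In lung vs. heart, 6 of 6 members were upregulated, where 19.5% of all tested miRNAs were upregulated and 19.1% downregulated. In lung vs. liver, 4 of 6 members were downregulated, against 26.6% of all tested. In heart vs. liver, 6 of 6 were downregulated, against 27% of all tested. The 4 values of each tissue did not overlap for 5 of 6 members in lung vs. heart (44.5% of all tested), 4 of 6 in lung vs. liver (52.7%) and 6 of 6 in heart vs. liver (52.3%). The median log2 fold change of the members was 1.56 in lung vs. heart, -1.68 in lung vs. liver and -3.28 in heart vs. liver, and over all tested miRNAs it was 0, 0.08 and -0.23. The 3 comparisons share libraries, so that they are not independent of each other. Called in all 3 comparisons, in the order liver, lung, heart, were 6 miRNAs (2.34% of those tested). They were miR-424, miR-450a, miR-450b-5p, miR-450c, the hepatocyte marker miR-194, and miR-135b, which was named after its value was seen.

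The scale of the values bears on these counts. With libraries rescaled to the same total of known miRNAs (CPM), the median log2 fold change over all tested miRNAs moved by 1.24 in lung vs. heart, 0.17 in lung vs. liver and -1.18 in heart vs. liver. Upregulated and downregulated miRNAs in lung vs. heart went from 50 and 49 to 124 and 15, and in heart vs. liver from 51 and 69 to 25 and 141. On that scale the median of the members was 2.93 in lung vs. heart, -1.51 in lung vs. liver and -4.49 in heart vs. liver, beside 1.24, 0.25 and -1.41 over all tested. The members therefore stood on the same side of the median of all tested miRNAs on both scales. Scaling without abundant muscle and liver miRNAs, added after seeing the data, moved the medians of all tested by 0.08, -0.14 and -0.28. The medians of the members were then 1.67, -1.86 and -3.57. Upregulated and downregulated were 50 and 44 in lung vs. heart, and 45 and 85 in heart vs. liver.

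**Figure D2:**
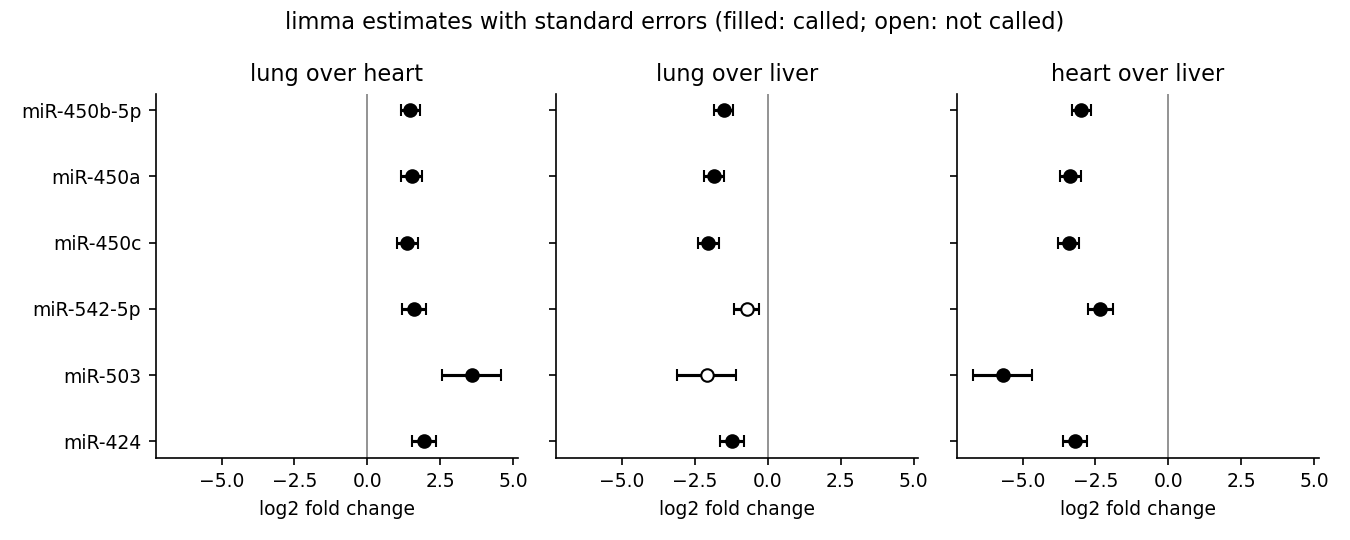
Log2 fold changes of the 6 members in lung over heart, lung over liver and heart over liver (horizontal axes), estimated by limma. Error bars are standard errors, filled points were called and open points were not. All 6 points lie right of 0 in lung over heart and left of 0 in the other comparisons, and miR-503 and miR-542-5p are open in lung over liver.

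The miR-450 members were the most abundant of the cluster. Whether their sequences are alike enough for reads to be counted under more than 1 of them was not checked here, which limits how far their counts and their likeness are separate measurements. The normalized counts of miR-450a in horses 27, 30, 32 and 34 were 339, 159, 340 and 261 in the heart. In the lung they were 500, 500, 931 and 1410, and in the liver 2605, 2556, 2750 and 3013. No tissue overlapped another, and the livers were close to each other (2731 ± 205, SD, n = 4). The lung mean was 3.04 times the heart mean (log2 fold change 1.52 ± 0.36, limma estimate ± SE, adjusted p = 0.00454), and the liver mean was 3.27 times the lung mean (lung vs. liver -1.85, adjusted p = 0.00102). From heart to liver the difference was 9.94-fold (heart vs. liver -3.37, adjusted p = 7.02e-06).

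For miR-450c, the heart libraries of horses 27, 30, 32 and 34 held 536, 211, 462 and 464 normalized counts. The lung libraries held 797, 649, 1193 and 1800, and the liver libraries 4349, 3772, 4155 and 4728. Again each tissue was clear of the others, with the liver 10.2-fold above the heart. The log2 fold changes were 1.38 in lung vs. heart (adjusted p = 0.00796), -2.04 in lung vs. liver (adjusted p = 0.000465) and -3.42 in heart vs. liver (adjusted p = 6.02e-06, limma). The lung vs. heart call was lost when horse 32 was left out (log2 fold change 1.38, adjusted p = 0.0507).

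miR-450b-5p is the mature strand from the 5' arm of its hairpin. It stood at 342, 215, 447 and 241 normalized counts in the hearts of horses 27, 30, 32 and 34. The lungs held 478, 958, 1089 and 958, and the livers 1937, 2126, 2227 and 3443. The lowest lung, of horse 27, was only a little above the highest heart, of horse 32, and the lung and liver values were well apart. The log2 fold changes were 1.48 in lung vs. heart (adjusted p = 0.00313), -1.51 in lung vs. liver (adjusted p = 0.00218) and -2.99 in heart vs. liver (adjusted p = 9.17e-06, limma). The liver mean was 7.82 times the heart mean.

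miR-424, at the far end of the cluster, was less abundant. Its heart values in horses 27, 30, 32 and 34 were 108, 66.9, 95.0 and 80.8 normalized counts. The lung values were 354, 286, 164 and 787, and the liver values 675, 1079, 670 and 847. Every lung exceeded every heart, but the lung of horse 34 lay above the livers of horses 27 and 32. The lung mean was 4.54 times the heart mean (log2 fold change 1.96 ± 0.41, adjusted p = 0.00203, limma), and heart vs. liver gave -3.20 (adjusted p = 3.58e-05), a 9.32-fold difference in means. The 2.06-fold step from lung to liver passed the test (lung vs. liver -1.24 ± 0.41, adjusted p = 0.0220, limma), but 7 of 25 alternatives took the call away. These were CPM values (adjusted p = 0.0847), leaving out horse 27 (0.0608), 30 (0.141) or 32 (0.0977), leaving out the lung library of horse 30 (0.0553) or 32 (0.0610), and leaving out the liver library of horse 30 (0.0633).

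miR-503, which neighbours miR-424 and shares its kind of seed, was the least abundant member in the heart. The heart libraries of horses 27, 30, 32 and 34 gave 46.0, 0, 34.7 and 18.5 normalized counts, from 37, 0, 31 and 11 inferred reads. By the study's minimum of 6 reads, a listed 0 would stand for fewer than 6 reads, which could not be checked here. The lung libraries gave 262, 131, 70.9 and 273, and the liver libraries 594, 1007, 573 and 656, so that no tissue overlapped another. The liver mean of 707 ± 203 was 28.5 times the heart mean of 24.8 ± 20.01 (SD, n = 4). The fitted changes were 3.59 ± 1.02 in lung vs. heart (adjusted p = 0.0126) and -5.68 in heart vs. liver (adjusted p = 0.000533, limma). Both rest in part on the listed 0, and without the heart library of horse 30 they were 2.34 (adjusted p = 0.00348) and -4.43 (adjusted p = 2.40e-05, limma).

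The lung vs. liver difference of miR-503, -2.09 ± 1.02, was not called (adjusted p = 0.103, limma). It was called with a pseudocount of 10 (-2.02, adjusted p = 0.00604), without horse 30 (-1.81, adjusted p = 0.0278) and without the heart library of horse 30 alone (-2.09, adjusted p = 0.00281). That heart library belongs to neither tissue of the comparison and enters through the shared estimate of the spread. The lung vs. heart call was lost without horse 34 (log2 fold change 3.51, adjusted p = 0.0651).

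miR-542-5p had the smallest step between lung and liver. Its hearts held 179, 52.0, 86.1 and 58.9 normalized counts in horses 27, 30, 32 and 34. The lungs held 226, 237, 166 and 472, and the livers 351, 334, 510 and 527. The heart of horse 27 exceeded the lung of horse 32, and the lung of horse 34 exceeded the livers of horses 27 and 30. Lung vs. heart gave a log2 fold change of 1.60 ± 0.43 (adjusted p = 0.00899) and -2.33 in heart vs. liver (adjusted p = 0.000630, limma), where the means differed 4.58-fold. Lung vs. liver gave -0.73 ± 0.43 (adjusted p = 0.172, limma) and was not called. The lung vs. heart call was lost without horse 30 (adjusted p = 0.0606) and without horse 34 (adjusted p = 0.0674).

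Within single horses, the liver exceeded the heart by 7.67-fold (horse 27) to 16.1-fold (horse 30) for miR-450a and by 1.96-fold (horse 27) to 8.95-fold (horse 34) for miR-542-5p. The lowest ratio of liver to lung was 1.08 for miR-424 and 1.12 for miR-542-5p, both in horse 34. In CPM, these same ratios fell to 0.741 and 0.769, so that the order liver, lung, heart held in 3 of 4 horses for miR-424 and miR-542-5p and in all 4 for the other 4 members. The lung library of horse 34 was the shallowest of the lungs and held the highest value of 5 of 6 members among the lungs. The heart library of horse 30 held the lowest heart value of all 6. Whether depth or anything else in these libraries had a part in this was not tested.

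The members of the cluster were also compared within tissues. The deviations of log2 values from their tissue means correlated between members with a median r of 0.552 over 15 pairs (0.0630 to 0.957), and the highest value was that of miR-450a and miR-450c. Over all 32640 pairs of tested miRNAs the median was 0.00487. These are descriptions over 12 libraries that all members share, as they share its size factor.

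The make-up of the cluster was compared next. miR-450c held 34.3% ± 5.03 of the cluster's normalized counts in the heart, 29.6% ± 4.22 in the lung and 37.5% ± 2.96 in the liver (SD, n = 4), and it was the highest member in 10 of 12 libraries. The 3 miR-450 members together held 83.2% ± 3.35 in the heart, 76.6% ± 8.95 in the lung and 82.7% ± 3.33 in the liver. miR-424 held 7.54%, 10.6% and 7.23%. miR-503 held 1.75% ± 1.28 in the heart, 5.37% ± 3.36 in the lung and 6.28% ± 2.00 in the liver. miR-542-5p went the other way, with 7.51% ± 2.84, 7.51% ± 1.96 and 3.77% ± 0.719. miR-503 was the lowest member in every heart and miR-542-5p in every liver. Shares of different miRNAs in a library also depend on how well each sequence is ligated and amplified, which was not measured.

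**Figure D3:**
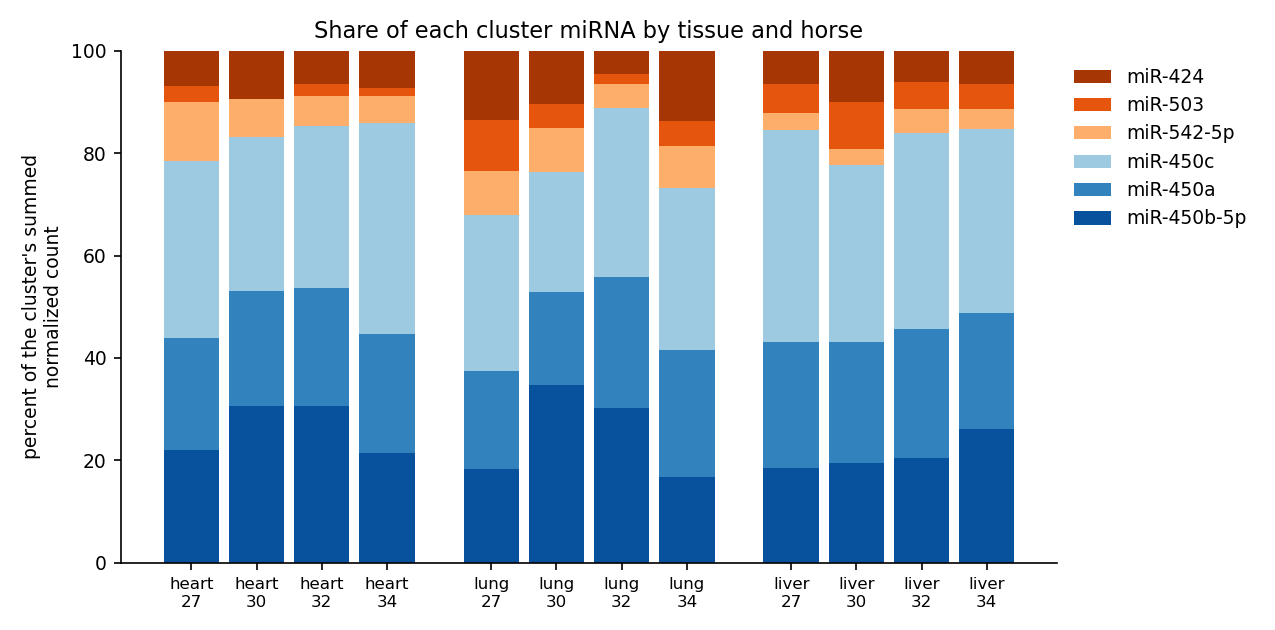
Percent of the cluster's summed normalized count (vertical axis) held by each member in each of the 12 libraries (horizontal axis, tissue and horse number). The blue segments of the miR-450 members take the largest part in every library, from 67.9% in the lung of horse 27 to 88.9% in the lung of horse 32.

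To ask whether the members changed by the same factor, each was expressed as a log2 ratio to miR-450a in its own library, which removes the size factor apart from the pseudocount. The 5 ratios were compared between tissues with exact two-sided permutation tests, 15 in all. None passed after adjustment (lowest adjusted p = 0.214). Before adjustment 2 did, at the smallest p that 4 against 4 libraries allow. The ratio of miR-503 was lower in the heart than in the liver (-4.30 ± 2.05 against -1.98 ± 0.430, SD, difference -2.31 on the log2 scale, exact permutation p = 0.0286). The ratio of miR-542-5p was higher in the heart than in the liver by 1.04 (-1.65 ± 0.538 against -2.69 ± 0.256, SD, exact permutation p = 0.0286). miR-503 also differed by 2.07 in lung vs. heart (exact permutation p = 0.0857) and miR-542-5p by 1.12 in lung vs. liver (exact permutation p = 0.0571). Both values of miR-503 rest in part on the heart of horse 30, where it is listed at 0. Without that library the difference was -1.30 in heart vs. liver (exact permutation p = 0.0571) and 1.06 in lung vs. heart (exact permutation p = 0.171). The differences of miR-424, miR-450b-5p and miR-450c lay between -0.20 and 0.60 in all comparisons. With so few libraries the adjusted threshold can be reached only when most of the 15 ratios stand at the smallest p, so that unequal change is not shown and equal change is not shown either.

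Next, miR-424 and miR-503 were set beside relatives with the same kind of seed, miR-15a, miR-15b, miR-16, miR-195 and miR-497, which are encoded outside the cluster and are likewise known as brakes on the cell cycle. These relatives were highest in the lung and not in the liver. In lung vs. heart 4 of 5 were upregulated (19.5% of all tested), and in lung vs. liver 5 of 5 (25% of all tested). In heart vs. liver 1 of 5 was upregulated (19.9% of all tested). miR-16, the best known of them, gave 8214, 8835, 5988 and 4287 normalized counts in the hearts of horses 27, 30, 32 and 34. The lungs gave 15481, 17652, 11429 and 17795, and the livers 4854, 3604, 3963 and 3822. All lungs lay above all hearts and livers, and the log2 fold change was 1.22 in lung vs. heart (adjusted p = 0.00167), 1.93 in lung vs. liver (adjusted p = 4.37e-05) and 0.70 in heart vs. liver (adjusted p = 0.0318, under the fold minimum, limma).

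miR-195 and miR-497, which are encoded side by side outside this cluster, had lung vs. liver changes of 2.34 and 1.01. miR-15a and miR-15b had 2.15 and 1.70. In heart vs. liver only miR-15a was called (1.19, adjusted p = 0.0160, limma). With CPM values this call was lost, with an estimate near 0 (-0.0175). The medians of the 5 relatives were 1.22, 1.93 and 0.58 in lung vs. heart, lung vs. liver and heart vs. liver, beside 0, 0.08 and -0.23 over all tested. The heart vs. liver values of all 5 were negative with CPM values, and that of miR-497 (-0.37) already was in normalized counts.

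**Figure D4:**
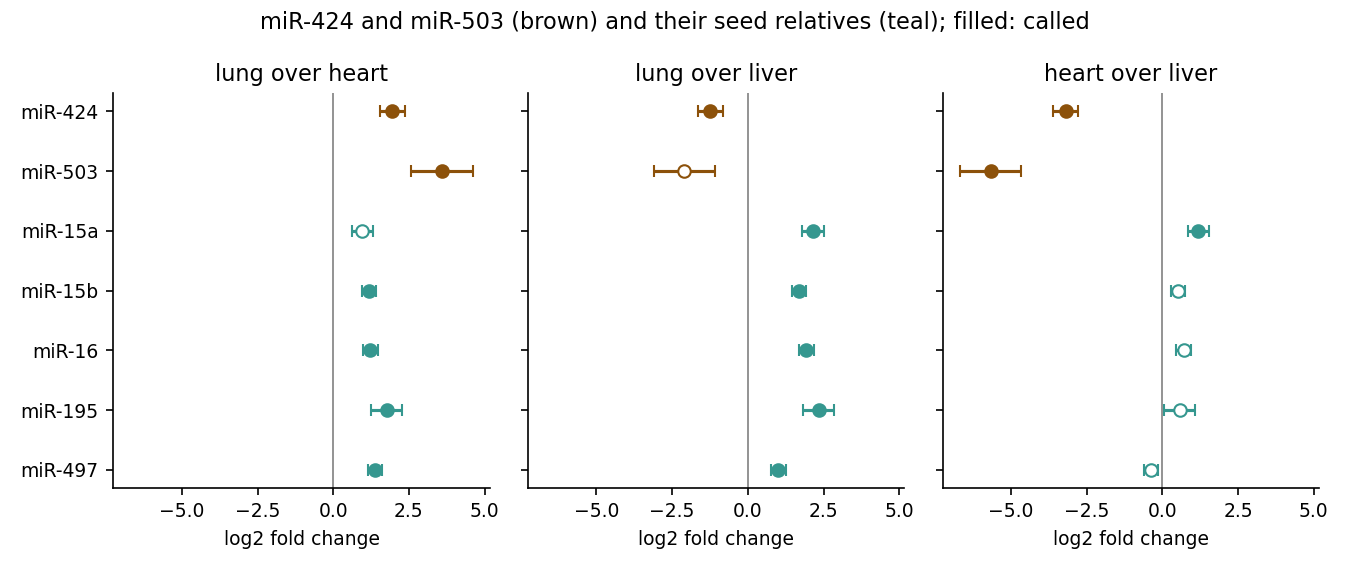
Log2 fold changes with standard errors (horizontal axes, limma) of miR-424 and miR-503 in brown and of 5 seed relatives in teal, for lung over heart, lung over liver and heart over liver. Filled points were called. In lung over liver the brown points lie left of 0 and the 5 teal points right of it.

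The difference itself was tested on the log2 ratio of miR-424 to each relative in the same library, a test added after these values were seen. In heart vs. liver the difference in this ratio lay between -4.39 and -2.83 on the log2 scale for the 5 relatives, and in lung vs. liver between -3.59 and -2.26. Each of these 10 ratios was lower in 4 of 4 horses and had an adjusted p of 0.0429 (exact permutation p = 0.0286, the smallest possible, 15 ratios). The 15 ratios share miR-424 and the same libraries, so that they are not separate tests. The adjusted p is this low only because 10 of them stood at the smallest p. Libraries were not paired by horse here, and the values were already known, so that these p-values are descriptive. In lung vs. heart the ratio differed by 0.19 to 0.99 and 0 of 5 passed (exact permutation test, adjusted p from 0.0714 to 0.771). Without any 1 horse, 0 of 15 ratios passed the exact permutation test, since 3 against 3 libraries cannot go below p = 0.1.

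Counted together, miR-424 and miR-503 made up 0.973%, 0.358%, 1.22% and 1.21% of the seed family's normalized counts in the hearts of horses 27, 30, 32 and 34. In the lungs they made up 1.62%, 0.911%, 1.10% and 2.64%, and in the livers 12.1%, 21.1%, 15.4% and 12.3%. The means were 0.941% ± 0.405, 1.57% ± 0.775 and 15.2% ± 4.22 (SD, n = 4), so that heart and lung overlapped and the liver stood apart from both. Both terms of the share differed between tissues, since the summed relatives stood at 13219 in the heart, 35705 in the lung and 8663 in the liver.

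**Figure D5:**
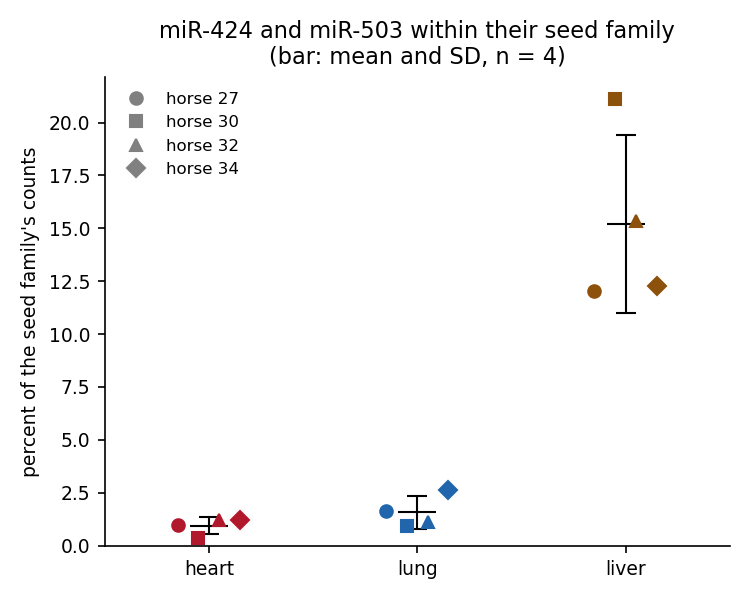
Percent of the normalized counts of the seed family (miR-15a, miR-15b, miR-16, miR-195, miR-497, miR-424 and miR-503) that was miR-424 or miR-503 (vertical axis), by tissue and horse, with mean and SD (n = 4). The 4 livers lie between 12.1% and 21.1%, and all hearts and lungs at or below 2.64%.

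The neighbouring cluster on chromosome X, with miR-106a, miR-18b, miR-20b and miR-363, belongs to the paralogs of the growth-promoting miR-17 cluster. Its members miR-363 and miR-20b were highest in the lung. miR-363 had means of 407 ± 66.6 in the heart, 1466 ± 296 in the lung and 690 ± 143 in the liver (SD, n = 4), with 1.84 in lung vs. heart and 1.09 in lung vs. liver on the log2 scale (adjusted p = 4.61e-05 and 0.00186, limma). miR-20b had 23.7 ± 12.7, 145 ± 65.5 and 49.4 ± 8.05, with 2.58 and 1.44 (adjusted p = 0.000251 and 0.00885, limma). miR-106a was listed at 0 in the lung of horse 34 and the liver of horse 30, and it was not called in any comparison. In the other 10 libraries it stood between 1016 and 6478. Why miR-106a was listed at 0 in that lung and that liver was not tested. Its means were 2901 in the heart, 3025 in the lung and 3213 in the liver, less apart than the libraries of any tissue. miR-18b did not pass the filter on low values. Among all 38 tested miRNAs that RefSeq places on chromosome X alone and that are not members, 10 had means in the order liver, lung, heart, and 5 of 27 did without the miR-8908 family. Of all 256 tested miRNAs, the members included, 40 (15.6%) had this order.

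Markers of other cell types were set beside the cluster, which is known from mesenchymal, muscle and endothelial cells. The summed smooth muscle and mesenchymal miRNAs (6 of 6 detected, among them miR-143) in normalized counts ran from 470587 to 557828 in the heart, from 325230 to 458746 in the lung and from 220196 to 396612 in the liver. On this scale the heart was highest, while in CPM it was lowest in the mean, with 229264 ± 48736 against 460623 ± 41743 in the lung and 323866 ± 79590 in the liver (SD, n = 4). In heart vs. liver 2 of these 6 were upregulated (19.9% of all tested) and 0 were downregulated (27% of all tested). miR-143 was upregulated by 1.25 on the log2 scale (adjusted p = 0.00661), which was 0.04 with CPM values (adjusted p = 0.919, limma). The summed endothelial miRNAs (3 of 3 detected, most of it miR-126-5p) were highest in the lung, with a mean of 454273 against 309199 in the heart and 150138 in the liver. In CPM the means were 525733 in the lung, 131693 in the heart and 155886 in the liver. The other 2 of 3, miR-221 and miR-222, were downregulated in heart vs. liver (-1.89 and -1.99 on the log2 scale, adjusted p = 0.000125 and 0.000201, limma), while miR-126-5p gave 0.97 and was not called. In lung vs. liver 3 of 3 were upregulated (25% of all tested), and in lung vs. heart 2 of 3 (19.5% of all tested). miR-221 and miR-222 thus had the order lung, liver, heart. With CPM values 3 of 3 were upregulated in lung vs. heart, where 124 of all tested miRNAs were. There miR-126-5p gave 1.99 (adjusted p = 5.47e-05, limma). The summed hepatocyte miRNAs ran from 633 to 2565 in the lung, where 1 of 3 was at 0 in all libraries, from 847 to 3278 in the heart, and were at least 983907 in the liver. Which cells of each tissue held the cluster miRNAs was not tested.

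Over the 12 libraries, the miRNAs whose log2 values were most like those of miR-450a by Pearson's r, among 255 others, were miR-450c (r = 0.994) and miR-450b-5p (r = 0.963). All 5 other members were among the first 8. The 5 non-members most like it were miR-32 (r = 0.934), miR-194 (r = 0.911), miR-335 (r = 0.903), miR-340-5p (r = 0.879) and miR-31 (r = 0.877). miR-32 had means of 64.1 in the heart, 474 in the lung and 894 in the liver, close in size to miR-424. miR-194 went from 133 and 339 to 34984, and miR-31 from 47.3 and 91.0 to 1912, so that their step from lung to liver was larger than that of any member. These coefficients mostly reflect the difference between tissues and are descriptions.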

How the data were processed

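Per the study's methods, the authors prepared libraries with the NEBNext small RNA kit, ran FastQC 0.12.1 for quality, kept reads of 18 to 25 nt after Trim Galore 0.6.7, and used sRNAbench with miRBase and EquCab3.0 (6 reads as the minimum) for counting and DESeq2 for normalization. Trimmomatic and BWA, with bcl2fastq, FastQC and DESeq2, stand in the submitters' processing notes, so the tools of both sources differ. The deposited values are a signal, counts divided by a size factor per library. In each library they were whole multiples of 1 step (100% within 0.01). Reads were inferred by taking the lowest value above 0 as the minimum of 6 reads. No value of 1 to 5 reads was there to check this, so no test rests on them. The deposited table also holds the authors' own comparison (log2 fold change, standard error, a Wald statistic or score, p-value and adjusted p-value), which was not used.

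The 256 known miRNAs that reached 10 normalized counts in 4 or more of the 12 libraries were tested with limma 3.58.1 in R 4.3.3 (trend, 1 fit with a mean per tissue) on log2(value + 1). This can understate changes of low miRNAs. Where a listed 0 enters, the change can also come out larger. For miR-503 in heart vs. liver it was -5.68, and -4.43 without the heart library of horse 30. Ratios were tested with exact two-sided permutation tests. Other steps used matplotlib 3.10.9, scipy 1.17.1, pandas 2.3.3 and numpy 2.4.6 in Python 3.11.15. The fit was tested on simulated data with known changes in the liver. In heart vs. liver it recovered 67.5% of log2 fold changes of 1.5 and 89.3% of those of 3. In lung vs. liver it recovered 66.2% and 89.8%. Of unchanged miRNAs, 0.886% and 1.06% were called, so that a change of the smaller size can be missed. The members and lists were chosen with earlier results of these data known. Named were all members, seed relatives and the neighbouring cluster, the 5 non-members most like miR-450a and the most abundant member of each marker list. RefSeq names (another assembly) matched 249 of 256 miRNAs. Other arms of these hairpins were not analysed here.

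Horse numbers pair the samples, since a number is 1 animal. For 2 libraries of the same horse, r of the deviations from the means of their tissues ran from -0.270 to 0.151 (12 pairs, median -0.057). For libraries of different horses it ran from -0.273 to 0.360 (36 pairs, median 0.028). Alternatives were other pseudocounts and filters, CPM values, all entries tested, no fold minimum, the horse as a block, and each horse or library left out. Scaling without abundant muscle and liver miRNAs was added after seeing the data. The mRNA and methylation data of the study were not used here.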

Additional observations from a re-analysis of the deposited data

How the results depend on the processing

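Over 25 alternatives for each member and comparison (450 in all), 436 kept direction and call, 11 lost the call, 3 gained it and none turned direction. In heart vs. liver 6 of 6 members were called under every alternative. In lung vs. heart this was 4 to 6 with a horse or library left out and 6 under the others. In lung vs. liver it was 3 to 5 with a horse or library left out, 3 with CPM values, 5 with a pseudocount of 10 and 4 under the others. With the horse as a replicate block the counts were 6, 4 and 6, and the block changed no call of a member. Over all tested miRNAs, CPM values moved those higher and lower in lung vs. heart from 50 and 49 to 124 and 15, and in heart vs. liver from 51 and 69 to 25 and 141. The 69 lower in heart vs. liver became 44 without horse 30 and 45 without horse 32. The call of miR-15a in heart vs. liver was lost with CPM values, with an estimate near 0 (-0.0175, adjusted p = 0.983, limma). The share of miR-424 and miR-503 in their seed family moved to 2.01% in the heart, 2.84% in the lung and 25.9% in the liver without miR-16. The count of ratios of miR-424 to its relatives that passed went from 10 to 0 without any 1 horse, where the smallest p is 0.1. Under every alternative 0 ratios to miR-450a passed, but with the sign-flip test within horses (smallest p 0.125) or with 3 horses none could. The planned tests on reads with edgeR and DESeq2 were not run, since the reads are inferred. Depth limits miR-503 most, with at most 37 reads in any heart.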
